A study of Mus musculus with 8 samples.

Results

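IGKV9-120 and IGKV9-124 are a pair of closely related mouse kappa light-chain V genes, and the cells that paired either of them with a heavy chain are described here across Dtx1 knockout and wild-type germinal centres. The members were the cell barcodes with exactly 1 heavy and 1 light contig (paired cells) whose light chain was assigned to IGKV9-120 or IGKV9-124. They numbered 1368 of 40603 paired cells, 823 in the knockout and 545 in the wild type. IGKV9-120 accounted for 756 of them and IGKV9-124 for 612. The remaining 37438 of the 38806 kappa cells are called other kappa cells, and the 45 cells with the related IGKV9-123 are counted there.

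Receptors were sequenced from single germinal-centre B cells of mouse spleen taken 10 days after immunization, enriched with peanut agglutinin beads, sorted and loaded on a droplet platform. The 8 libraries were 4 labelled Dtx1-/- (KO) and 4 labelled Dtx1+/+ (WT). Dtx1 encodes Deltex-1, an E3 enzyme that attaches ubiquitin and acts in the Notch pathway, and the question of the study was its role in keeping germinal-centre B cells in balance. The sources used here do not give the immunogen, the strain, or the number and age of the mice. The contigs are antibody transcripts only, so loss of Dtx1 could not be checked with them.

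A library held 11666 to 14732 contigs, 754954 to 1155339 UMIs (unique molecular identifiers, each a counted transcript molecule), 4585 to 5712 paired cells and 4312 to 5538 kappa cells. A count of 3 cells, the limit that a count of 0 allows, was 0.0542 to 0.0696% of the kappa cells of a library, for counting error only. Libraries of a genotype shared many clonotypes: pairs from the same genotype had 17 to 44 IGKV9 clonotypes in common (median 31.5, 12 pairs), and pairs of different genotype had 0 (16 pairs). Each genotype is therefore treated as 1 pool of cells divided over 4 libraries, and every SD and p below measures the spread between portions of a pool, not between animals. Between 51 and 83 barcodes recurred in each pair of libraries, and none of the recurring paired barcodes carried the same clonotype. Among KO libraries the median heavy-chain UMI count was 37 to 41, and among WT libraries 22 to 25. The median light-chain count was 70 to 79 in KO and 62 to 68 in WT, and reads per paired cell overlapped (KO libraries 7453 to 8392, WT libraries 6691 to 9314).

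Markers of other B-cell states were counted. Cells with IgD, the constant region of resting follicular B cells, were 0 for both genes in both pools. Among other kappa cells they were 27 of 20401 in KO and 113 of 17037 in WT. Cells with an unmutated IgM heavy chain made up 85.6% of KO and 66.3% of WT IGKV9-120 cells, and 79.5% of KO and 27.3% of WT IGKV9-124 cells, against 73.0% of KO and 60.7% of WT other kappa cells. These are not distinguished here from early germinal-centre cells. The B-1 cell genes IGHV12-3 and IGHV7-1 had 0 cells, and IGHV11-2 had 1 (WT, IGKV9-120). Other kappa cells held 273 KO and 89 WT cells with IGHV12-3, 18 KO and 20 WT with IGHV7-1, and 36 KO and 2 WT with IGHV11-2. Cells chosen by their light chain need not hold a fair sample of heavy genes, and IgD was rare throughout. These counts therefore do not settle the cell type. Cells with at least 10 times the median heavy-chain UMIs of their library, a sign of plasma cells, numbered 2 in KO and 4 in WT over both genes.

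An antibody light chain is built by joining a V segment to a J segment. The V segment encodes the framework regions, which hold the fold, and the first 2 complementarity-determining regions (CDRs), which contact antigen, while CDR3 spans the junction. Each B cell carries 1 heavy and 1 light rearrangement as a rule, so a V gene recurring with the same heavy partner marks a receptor type. In the germinal centre, activation-induced deaminase introduces point mutations into both V segments, and IgM can be switched to IgG.

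The genes lie on chromosome 6 in the kappa locus, IGKV9-120 at 68049983 to 68050454 and IGKV9-124 at 67942076 to 67942540 (RefSeq table, build GRCm38.p6, which is mm10). No germline table was at hand, so the V-segment sequence that most clones of a gene carried, from the start of framework 1 to the end of framework 3, was taken as its germline. It was carried by 84.9% of 291 IGKV9-120 clones and 78.9% of 199 IGKV9-124 clones, and it was the same in both pools. The sequences are shown because assignment of cells to a gene rests on the bases that differ between them, which are in capitals.
IGKV9-120: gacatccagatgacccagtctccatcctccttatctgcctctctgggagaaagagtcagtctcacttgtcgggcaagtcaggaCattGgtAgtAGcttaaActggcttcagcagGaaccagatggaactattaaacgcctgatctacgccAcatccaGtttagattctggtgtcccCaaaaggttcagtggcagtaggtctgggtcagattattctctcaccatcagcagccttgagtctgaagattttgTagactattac
IGKV9-124: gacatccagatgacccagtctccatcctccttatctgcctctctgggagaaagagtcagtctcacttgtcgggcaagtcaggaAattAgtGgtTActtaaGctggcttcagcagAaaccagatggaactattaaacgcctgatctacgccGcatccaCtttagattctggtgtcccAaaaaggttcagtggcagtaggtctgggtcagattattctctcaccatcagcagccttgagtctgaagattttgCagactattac

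The 261 bases differed at 11 positions (95.8% identity). With the IGKV9-120 base first and positions counted from the first base of framework 1, these are C84A, G88A, A91G, A94T, G95A, A101G, G115A, A151G, G158C, C177A and T251C. Of these, 6 lie in CDR1 and 2 in CDR2. All but C177A change the protein, as D28E, G30S, S31G, S32Y (from A94T and G95A together), N34S, E39K, T51A, S53T and V84A. The next nearest V gene was IGKV9-123, 88.5% identical to IGKV9-120 and 89.3% to IGKV9-124. At the 11 positions, 737 of 756 IGKV9-120 cells and 602 of 612 IGKV9-124 cells carried no base of the other gene, and no cell carried more than 2.

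IGKV9-124 was used more in KO and IGKV9-120 was not shown to differ. IGKV9-124 was found in 102, 91, 114 and 107 cells of the KO libraries, against 58, 48, 47 and 45 cells of the WT libraries. The groups did not overlap, although the KO libraries also held more cells. As a share of kappa cells it came to 1.96 ± 0.24% in KO and 1.12 ± 0.10% in WT (SD, n = 4 each). The log2 fold change was 0.79 ± 0.12 (SE, adjusted p = 1.37e-05, edgeR quasi-likelihood test on cell counts, Benjamini-Hochberg over 69 IGKV genes). With each clone counted once per library, in place of each cell, the log2 fold change was 0.37 ± 0.14 (edgeR adjusted p = 0.0498). Paired cells held 81.2% of the KO and 70.7% of the WT contigs of this gene.

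IGKV9-120 was found in 93, 113, 99 and 104 KO cells, against 102, 78, 85 and 82 WT cells. Its share of kappa cells was 1.93 ± 0.18% in KO and 1.97 ± 0.20% in WT (SD, n = 4 each), with overlapping libraries. The log2 fold change was −0.03 ± 0.10 (edgeR adjusted p = 0.802). Under TMM factors, which centre the genes on each other and moved the median of all IGKV genes by −0.24 on the log2 scale, IGKV9-120 came to −0.27 (adjusted p = 0.0200) and IGKV9-124 to 0.55. Thus 1 of the 2 genes was called, in a comparison where 72.5% of 69 IGKV genes were called, 46.4% higher and 26.1% lower in KO. Of the called genes 64% were higher in KO, and 50% under TMM factors. Together the genes made up 3.89 ± 0.31% of KO and 3.10 ± 0.29% of WT kappa cells. By pooled cells IGKV9-124 ranked 18th of 94 IGKV genes in KO and 28th in WT, and IGKV9-120 ranked 19th in KO and 13th in WT.

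**Figure D1:**
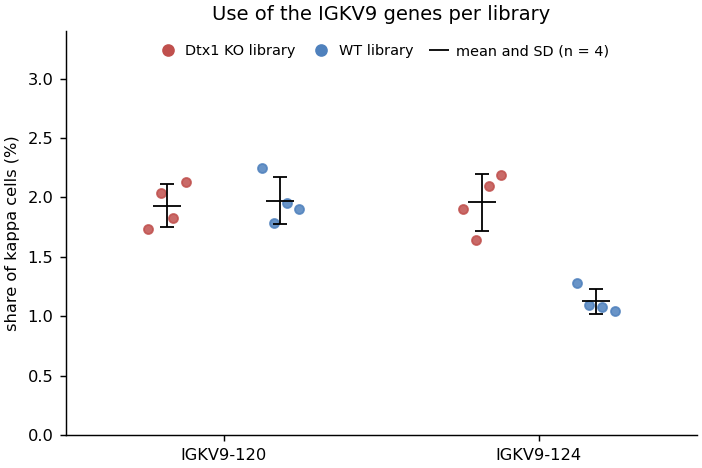
Share of kappa cells (percent) with IGKV9-120 or IGKV9-124, 1 point per library, KO left of WT in each pair, with the mean and SD of 4 libraries. The KO points of IGKV9-124 all lie above its WT points (means 1.96 and 1.12%), and those of IGKV9-120 overlap.

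Across the 8 libraries, the share of IGKV9-124 ran most closely with IGKV4-50 (r = 0.96), IGKV8-19 (r = 0.95) and IGKV5-48 (r = 0.95), of 70 IGKV genes at 0.2% of kappa cells or more. All 3 genes likewise had higher means in KO (0.717, 1.43 and 2.49%) than in WT (0.222, 0.345 and 1.14%), and the 8 points share the split into 2 pools. The genes nearest to IGKV9-120 were IGKV3-10 (r = 0.72), IGKV16-104 (r = 0.66) and IGKV8-24 (r = 0.63).

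Among combinations of IGKV9-124 with a J segment, the one with IGKJ5 was used more in KO. IGKJ5 joined to IGKV9-124 in 53, 46, 56 and 50 KO cells, against 15, 11, 12 and 14 WT cells. The KO cells fell into 43 clones and the WT cells into 19. As a share of kappa cells this combination was 0.968 ± 0.094% in KO and 0.296 ± 0.038% in WT, a log2 fold change of 1.70 ± 0.20 (edgeR adjusted p = 2.77e-08 over 135 V-J combinations). Counting each clone once gave 0.78 (adjusted p = 0.0279). The combination with IGKJ1 was found in 119 KO and 100 WT cells and had a log2 fold change of −0.01 ± 0.24 (adjusted p = 0.962), and that with IGKJ2 had 0.35 ± 0.32 (adjusted p = 0.342). IGKV9-124 with IGKJ4 was too rare for the test, with 28 KO and 6 WT cells. Within IGKV9-124 cells, IGKJ5 made up 49.6 ± 2.2% in KO and 26.4 ± 3.4% in WT, and IGKJ1, the main J segment in WT, 28.4 ± 7.3% in KO and 50.5 ± 9.2% in WT. The libraries did not overlap for either segment, and neither difference passed the exact permutation test after adjustment (adjusted p = 0.0571 each). By clones, IGKJ5 was used by 43 of 127 KO and 19 of 72 WT IGKV9-124 clones, and IGKJ1 by 39 KO and 32 WT clones.

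For IGKV9-120, IGKJ4 was used in 14, 20, 17 and 14 KO cells, against 20, 20, 23 and 16 WT cells, at 0.305 ± 0.043% of kappa cells in KO and 0.449 ± 0.065% in WT. Its log2 fold change was −0.55 ± 0.23 (edgeR adjusted p = 0.0457), and the call was lost with no filter on rare combinations (adjusted p = 0.0761), with DESeq2 (0.0913 and 0.118 by scaling), with all barcodes that had a heavy chain (0.0681), with the replicate block (0.0682) and without KO library 1, 3 or 4 or WT library 1, 2 or 3 (0.0692 to 0.149). The other 3 IGKV9-120 combinations did not pass, with log2 fold changes of 0.31 for IGKJ1, 0.31 for IGKJ2 and −0.50 for IGKJ5 (adjusted p = 0.0764). In all, 2 of the 7 IGKV9 combinations tested were called, against 54.1% of all 135, of which 31.9% of those tested were higher and 22.2% lower in KO.

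Counted by cells, IGKV9-124 used IGKJ5 more and IGKJ2 and IGKJ4 less than other kappa cells of the same libraries. Large clones weigh on these shares: KO clones of 39, 35 and 25 cells all used IGKJ5. By clones, IGKJ2 was used by 34 of 127 KO and 17 of 72 WT IGKV9-124 clones, and IGKJ4 by 11 KO and 4 WT clones. IGKJ5 made up 38.0 ± 13% of IGKV9-124 cells and 25.5 ± 2.3% of other kappa cells (SD, n = 8), higher in 7 of 8 libraries (exact sign-flip test, two-sided, adjusted p = 0.0469). The difference was −14.8 percentage points for IGKJ2, lower in 7 of 8 libraries, and −9.97 points for IGKJ4, lower in 8 of 8 (adjusted p = 0.0469 each). The IGKJ2 call was lost without any 1 of the 8 libraries (adjusted p = 0.0625 to 0.0938), and the IGKJ4 and IGKJ5 calls without any 1 but WT library 2. No J segment of IGKV9-120 passed that test. The IGKJ5 excess was 22.0 ± 2.0 points in KO and 2.90 ± 3.5 points in WT (exact permutation test of the difference, p = 0.0286, adjusted p = 0.0686, not called).

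The light-chain CDR3 was nearly invariant in length. It had 11 codons in 755 of 756 IGKV9-120 cells and 606 of 612 IGKV9-124 cells, against 91.0% of KO and 92.5% of WT other kappa cells. The 4 sequences found in most clones of each gene are shown because together they held 83.1% of KO and 87.9% of WT IGKV9-120 cells, and 81.4% of KO and 73.2% of WT IGKV9-124 cells. Capitals mark base 20, at which the 4 sequences of the one gene differ from those of the other, and the codon at the V-J joint.
IGKV9-120 with IGKJ2: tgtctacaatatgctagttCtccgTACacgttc
IGKV9-120 with IGKJ1: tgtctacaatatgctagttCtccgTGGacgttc
IGKV9-120 with IGKJ5: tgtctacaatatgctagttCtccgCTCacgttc
IGKV9-120 with IGKJ4: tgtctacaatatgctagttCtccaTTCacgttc
IGKV9-124 with IGKJ5: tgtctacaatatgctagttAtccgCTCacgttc
IGKV9-124 with IGKJ2: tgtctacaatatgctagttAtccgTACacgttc
IGKV9-124 with IGKJ1, tryptophan at the joint: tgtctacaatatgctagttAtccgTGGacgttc
IGKV9-124 with IGKJ1, arginine at the joint: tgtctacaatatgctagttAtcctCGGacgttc

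The IGKJ2 form of IGKV9-120 was its most common, with 150 cells in 50 KO clones and 91 cells in 41 WT clones. The IGKJ5 form of IGKV9-124 held 187 cells (45.2%) in 36 KO clones, against 37 cells (18.7%) in 14 WT clones. By clones those shares were 28.3% in KO and 19.4% in WT. The tryptophan form with IGKJ1 held 14.5% of KO and 32.3% of WT IGKV9-124 cells. These shares are descriptions and were not tested.

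Each gene had 1 leading heavy partner, and the partners were different. In IGKV9-120 cells IGHV8-8 made up 35.5, 35.4, 33.3 and 37.5% of the KO libraries, against 17.6, 20.5, 17.6 and 19.5% of the WT libraries. The KO mean was 35.4 ± 1.7% and the WT mean 18.8 ± 1.4%, where other kappa cells had 5.98% in KO and 4.01% in WT. In IGKV9-124 cells IGHV1-53 made up 29.4, 40.7, 36.0 and 36.4% of the KO libraries, against 37.9, 56.2, 34.0 and 51.1% of the WT libraries. Its means were 35.6 ± 4.6% in KO and 44.8 ± 11% in WT, where other kappa cells had 3.50% in KO and 2.58% in WT. Both partners were above the other kappa cells in 8 of 8 libraries.

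An edgeR fit with library as a block, chosen after these shares were seen, compared the heavy genes of each member with those of other kappa cells. In IGKV9-120 cells 4 of 46 IGHV genes were called higher (8.7%) and 24 lower (52.2%), and shares sum to a whole, so a large partner lowers the rest. The higher ones were IGHV8-8 (log2 2.41 ± 0.10, edgeR adjusted p = 5.58e-74), IGHV5-9 (3.29 ± 0.42, adjusted p = 1.76e-12), IGHV1-76 (1.68 ± 0.49) and IGHV1-55 (0.62 ± 0.27). IGHV1-76 had 7.93 ± 2.6% in KO and 0.599 ± 0.69% in WT, where other kappa cells had 1.21% in KO and 1.13% in WT, so it was higher in 5 of 8 libraries, and 28 of its 33 KO cells were 1 clone. The IGHV1-55 call was lost without KO library 1 or any 1 WT library (edgeR adjusted p = 0.0502 to 0.15) and with all barcodes that had a heavy chain (0.27, adjusted p = 0.516). In IGKV9-124 cells 5 of 42 were called higher (11.9%) and 28 lower (66.7%). IGHV1-53 led (3.66 ± 0.16, adjusted p = 1.07e-67), followed by IGHV1-26 (1.14), IGHV8-8 (0.83), IGHV1-9 (0.58) and IGHV1-81 (0.51). The IGHV1-9 call was lost without KO library 4 (edgeR adjusted p = 0.0862), and the IGHV1-81 call without KO library 1, 2 or 3 (0.0510 to 0.161). The standard errors treat cells of a clone as separate cells. With each clone counted once, 3 of 38 genes were called higher in IGKV9-120 cells (7.89%) and 8 lower (21.1%), and 4 of 36 were called higher in IGKV9-124 cells (11.1%) and 13 lower (36.1%). IGHV8-8 then stood at 2.40 and IGHV5-9 at 3.14 in IGKV9-120 cells and IGHV1-53 at 3.13 in IGKV9-124 cells, all called, and IGHV1-9 was no longer called (0.36, edgeR adjusted p = 0.361).

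Read from the heavy chain, IGKV9-124 was the most used of 69 IGKV genes in IGHV1-53 cells, with 235 of 1388, which is 17.1 ± 1.7% of those cells in KO and 16.7 ± 3.4% in WT. IGKV9-120 ranked second of 76 in IGHV8-8 cells, with 210 of 2171 (10.4 ± 1.3% in KO and 8.50 ± 0.94% in WT), behind IGKV14-100. The cross pairing was not symmetrical. IGKV9-124 was found with IGHV8-8 in 57 cells, and IGKV9-120 with IGHV1-53 in 1 cell.

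**Figure D2:**
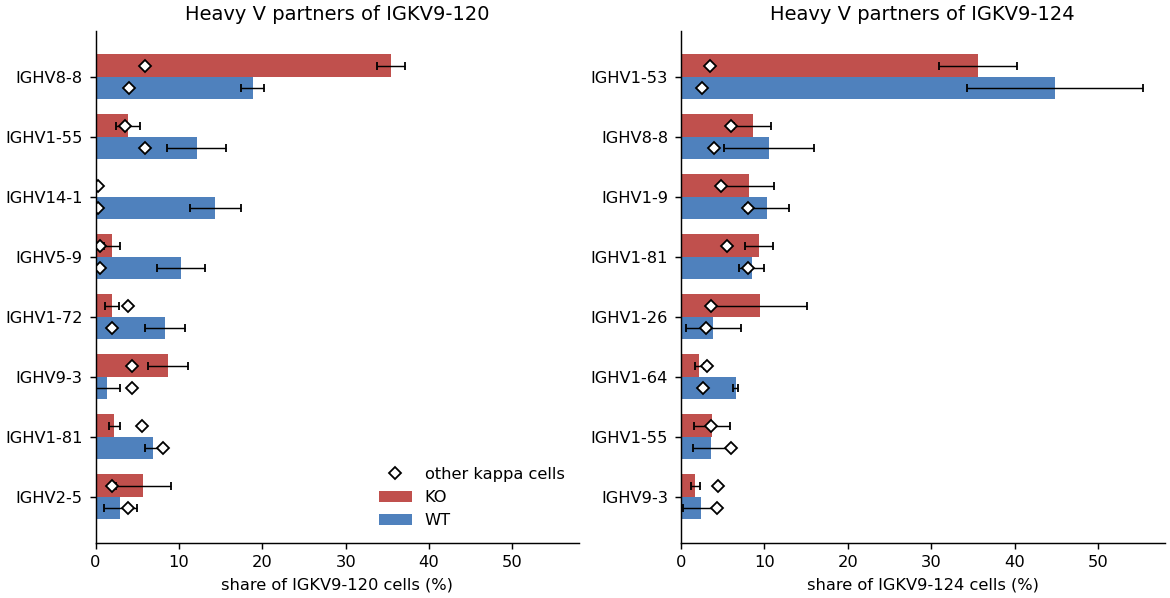
Share of IGKV9-120 (left) and IGKV9-124 (right) cells with each of the 8 most frequent heavy V genes, in percent, as the mean of 4 KO (upper bar) and 4 WT (lower bar) libraries with SD; diamonds give the same share in other kappa cells. IGHV8-8 leads for IGKV9-120 (35.4% in KO, 18.8% in WT) and IGHV1-53 for IGKV9-124 (35.6% in KO, 44.8% in WT).

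As shares of kappa cells, 2 IGKV9 pairs were frequent enough to be tested between the pools, and both were called higher in KO, where 75.3% of 73 heavy-light pairs were called (31.5% higher and 43.8% lower). IGHV8-8 with IGKV9-120 had 145 cells in 44 KO clones, against 65 cells in 22 WT clones, a log2 fold change of 0.88 ± 0.20 (edgeR adjusted p = 3.40e-05) and of 0.66 with each clone counted once (adjusted p = 0.0203). IGHV1-53 with IGKV9-124 had 147 cells in 23 KO clones, against 88 cells in 13 WT clones, a log2 fold change of 0.47 ± 0.19 (adjusted p = 0.0196). That call was lost with each clone counted once (0.09, adjusted p = 0.792), with no filter (adjusted p = 0.129), and without KO library 3, KO library 4 or WT library 3 (0.42, 0.40 and 0.35).

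The other frequent partners of IGKV9-120 differed in level between the pools, often through few clones. IGHV14-1 had 0 KO cells and 50 WT cells in 3 clones (14.4 ± 3.1% of WT IGKV9-120 cells). IGHV5-9 had 8 KO cells in 4 clones, against 35 WT cells in 7 clones. IGHV1-55 came to 3.92% in KO and 12.1% in WT, and IGHV1-72, the heavy gene known from nitrophenyl responses with lambda light chains, to 1.98% in KO and 8.34% in WT. IGHV9-3 ran the other way, at 8.69% in KO and 1.38% in WT. The IGHV1-72 cells fell into 5 KO and 4 WT clones, and 1 clone held 26 of the 29 WT cells. The remaining partners among the 8 most frequent were IGHV1-81 (2.23% in KO, 6.90% in WT) and IGHV2-5 (5.72% in KO, 2.99% in WT). Over both pools IGKV9-120 was seen with 60 IGHV genes and IGKV9-124 with 48. None of these shares was tested between pools.

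The other frequent partners of IGKV9-124 follow, again without a test between the pools. IGHV8-8 paired with 8.58% of the KO cells and 10.5% of the WT cells. IGHV1-9 paired with 8.11% in KO and 10.3% in WT, and IGHV1-81 with 9.40% in KO and 8.46% in WT. IGHV1-26 came to 9.48 ± 5.6% in KO and 3.88 ± 3.3% in WT, and IGHV1-64 to 2.19 ± 0.53% in KO and 6.55 ± 0.29% in WT. IGHV1-55 (3.70% in KO, 3.66% in WT) and IGHV9-3 (1.73% in KO, 2.35% in WT) complete the 8.

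The heavy J segment IGHJ1 was rarer with both members. It joined 11.3 ± 5.6% of KO and 5.95 ± 1.7% of WT IGKV9-120 cells, and 4.65 ± 3.0% of KO and 5.95 ± 4.4% of WT IGKV9-124 cells, against 18.9% of KO and 16.6% of WT other kappa cells. It was below the other kappa cells in 8 of 8 libraries for both genes, and no test was run. IGHJ2 was used by 28.1 ± 8.7% of KO and 45.2 ± 5.3% of WT IGKV9-120 cells, against 30.2% of KO and 29.9% of WT other kappa cells. By clones its share in IGKV9-120 was 31.1% in KO and 38.5% in WT, and 48 of the WT cells were 1 IGHV14-1 clone.

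Heavy CDR3 length differed by partner. IGKV9-124 cells had a mean heavy CDR3 of 13.3 ± 0.48 codons, against 14.4 ± 0.052 in other kappa cells (SD, n = 8), shorter in 8 of 8 libraries (exact sign-flip test, adjusted p = 0.0094). Without IGHV1-53 cells the difference turned to 0.68 codons longer (adjusted p = 0.0563). IGKV9-120 cells had 14.6 ± 0.40 codons and did not pass the test (adjusted p = 0.391). The IGHV8-8 cells of IGKV9-120 had a CDR3 of narrow length, with a mean over clones of 16.9 ± 0.82 codons in KO and 16.7 ± 1.3 in WT, against 16.9 ± 2.2 in KO and 16.8 ± 2.4 in WT for IGHV8-8 clones with other kappa genes (SD over clones, a description). In that set 91.7% of KO and 93.8% of WT cells had an unmutated IGHV. The narrow length was not particular to IGKV9-120. IGHV8-8 clones with IGKV9-124 had an SD of 1.41 codons in KO (9 clones) and 1.01 in WT (11 clones).

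Mutation was lower in KO for both genes over all their cells, and the gap was wide for IGKV9-124. A cell was called unmutated where its V segment had no base differing from germline. In IGKV9-124 cells the IGHV was unmutated in 78.4, 82.4, 79.8 and 86.0% of the KO libraries, against 27.6, 29.2, 29.8 and 31.1% of the WT libraries. The means were 81.7 ± 3.3% in KO and 29.4 ± 1.5% in WT, 52.3 points apart. In IGKV9-120 cells the values were 86.0, 84.1, 91.9 and 86.5% in KO, against 64.3, 71.4, 73.8 and 70% in WT. The means were 87.1 ± 3.4% in KO and 69.9 ± 4.0% in WT. The groups did not overlap for either gene, and each exact two-sided permutation test reached its smallest possible value (p = 0.0286, adjusted p = 0.0286). With each clone counted once the KO minus WT differences were 36.5 points for IGKV9-124 and 20.4 points for IGKV9-120 (exact permutation test, adjusted p = 0.0312 each). Other kappa cells had 77.8% in KO and 65.0% in WT. The partners of IGKV9-120 were not alike in this. With IGHV8-8, its leading partner, 91.7% of KO and 93.8% of WT cells had an unmutated IGHV. With IGHV1-55 it was 100% of KO and 56.1% of WT cells, and with IGHV5-9 62.5% of 8 KO and 5.71% of 35 WT cells. Whether the partner make-up of the pools accounts for the IGKV9-120 difference was not tested.

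The mutation frequency, the percent of V bases that differ from germline, showed the same order. For the IGHV of IGKV9-124 cells it was 0.198 ± 0.062% in KO and 0.865 ± 0.073% in WT, and for their IGKV 0.0539 ± 0.022% in KO and 0.233 ± 0.064% in WT. For IGKV9-120 cells the IGHV had 0.119 ± 0.044% in KO and 0.357 ± 0.095% in WT, and the IGKV 0.0278 ± 0.014% in KO and 0.138 ± 0.043% in WT. All 4 comparisons had an adjusted p of 0.0286 (exact permutation test). Other kappa cells were also less mutated in KO, with no overlap of libraries, at 0.226 ± 0.016% in KO and 0.439 ± 0.017% in WT for the IGHV and 0.112 ± 0.0021% in KO and 0.215 ± 0.011% in WT for the IGKV. Relative to those cells, the KO minus WT difference of IGKV9-120 cells was −0.025 points for the IGHV and −0.0074 points for the IGKV (exact permutation test, adjusted p = 0.743 each), and that of IGKV9-124 cells −0.454 and −0.076 points (adjusted p = 0.0686 and 0.114). For IGKV9-120 the IGHV call was lost without any 1 KO library, and the IGKV call without KO library 2, 3 or 4 (adjusted p = 0.0571 each). The IGKV was unmutated in 90.8% of KO and 65.1% of WT IGKV9-124 cells, and in 95.5% of KO and 81.4% of WT IGKV9-120 cells. The difference in IGKV9-124 was no longer called with each clone counted once (19.2 points, exact permutation test, adjusted p = 0.0571), and that in IGKV9-120 without any 1 KO library (adjusted p = 0.0571). Heavy-chain UMI counts moved with the pools, at a median of 36.6 ± 3.9 UMIs in KO and 20.4 ± 5.0 in WT IGKV9-124 cells. Within cells of 20 to 40 heavy-chain UMIs, an alternative chosen after seeing the data, the difference in unmutated IGHV was 58.9 points for IGKV9-124 and 17.3 for IGKV9-120 (exact permutation test, adjusted p = 0.0686 and 0.0857).

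**Figure D3:**
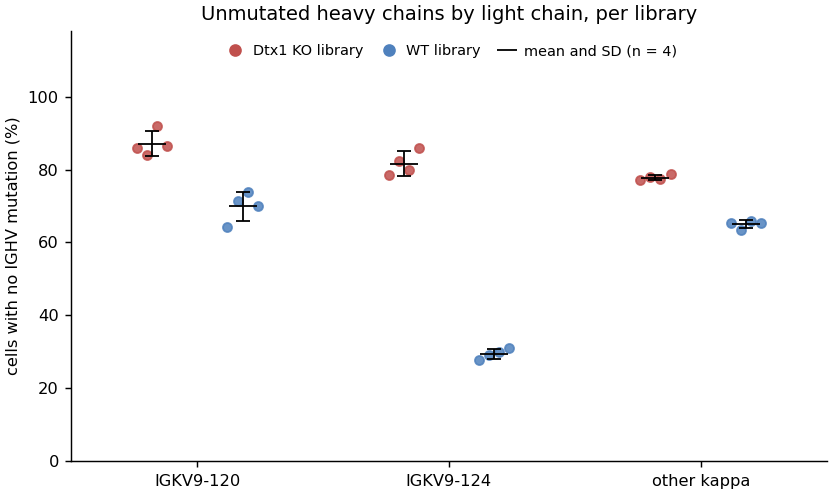
Percent of cells whose heavy V segment carries no mutation, 1 point per library, KO left of WT, for IGKV9-120, IGKV9-124 and other kappa cells, with the mean and SD of 4 libraries. The WT libraries of IGKV9-124 sit at 27.6 to 31.1%, below every other set.

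Among the 48 IGKV genes with at least 100 WT cells, IGKV9-124 had the highest IGHV mutation frequency (0.863% over pooled cells, median gene 0.363%) and the lowest unmutated share (29.3%, median gene 69.8%). In KO it ranked 27th and 38th of 60 genes on those measures. The gap between IGKV9-124 and other kappa cells in unmutated IGHV was +3.86 ± 2.6 points in KO and −35.6 ± 1.8 points in WT. The difference between those gaps was 39.5 points (exact permutation test, p = 0.0286, adjusted p = 0.0686, not called), and 18.5 points with each clone counted once (adjusted p = 0.114).

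IGKV9-120 cells were less mutated than other kappa cells. The difference in frequency was −0.095 points for the IGHV (lower in 7 of 8 libraries) and −0.081 points for the IGKV (lower in 8 of 8), each with an adjusted p of 0.0375 in the exact sign-flip test. With each clone counted once the IGHV difference was −0.118 points and no longer called (adjusted p = 0.0536), and both calls were lost without any 1 library but WT library 1 (adjusted p = 0.075). They were also less mutated than IGKV9-124 cells, with an unmutated IGHV in 78.5 ± 9.8% against 55.5 ± 28% (SD, n = 8, higher in 8 of 8 libraries, adjusted p = 0.0104). IGKV9-124 cells did not pass that test against other kappa cells over both pools together (IGHV frequency, exact sign-flip test, adjusted p = 0.188).

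Counted by cells, the contrast in IGKV9-124 held in both parts of its repertoire when split by partner, a division chosen after seeing the values. With IGHV1-53, 84.0 ± 4.1% of KO and 22.5 ± 9.1% of WT cells had an unmutated IGHV. Without IGHV1-53 the shares were 80.8 ± 6.3% in KO and 33.1 ± 6.5% in WT. In both sets the libraries of the pools did not overlap. Libraries are portions of a pool, so a large clone enters several of them. The IGHV1-53 set held 147 KO cells in 23 clones and 88 WT cells in 13 clones. Clones of 39 and 35 KO cells were wholly unmutated, and a clone of 28 WT cells had 0 unmutated. The set without IGHV1-53 held 104 KO and 59 WT clones. This split was not repeated with each clone counted once. The share of kappa cells was 0.695 ± 0.11% in KO and 0.501 ± 0.10% in WT with IGHV1-53, and 1.26 ± 0.19% in KO and 0.624 ± 0.15% in WT without it.

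The IGHV1-53 cells of IGKV9-124 fell into 2 sets by the length of the heavy CDR3, a division chosen after seeing the values and given as a description. A CDR3 of 9 codons was found in 25 of 147 KO cells (17.0%, 7 clones), against 65 of 88 WT cells (73.9%, 6 clones). These cells were mutated in both pools: only 12% of KO and 9.23% of WT cells had an unmutated IGHV, and the IGHV frequency was 0.982% in KO and 1.13% in WT. They used IGKJ1 in 68.0% of KO and 75.4% of WT cells and IGKJ5 in none, and 3 KO and 9 WT cells were class-switched. The cells of other lengths numbered 122 in KO (16 clones) and 23 in WT (7 clones). Of them, 98.4% of KO and 65.2% of WT cells had an unmutated IGHV, and 92.6% of KO and 100% of WT cells used IGKJ5.

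The 9-codon length was rare outside that pair. It was found in 4 of 713 KO and 11 of 439 WT cells that joined IGHV1-53 to another kappa gene, and in 10 of 267 KO and 1 of 110 WT cells that joined IGKV9-124 to another heavy gene. By library the KO cells numbered 2, 8, 7 and 8 and the WT cells 16, 20, 13 and 16.

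**Figure D4:**
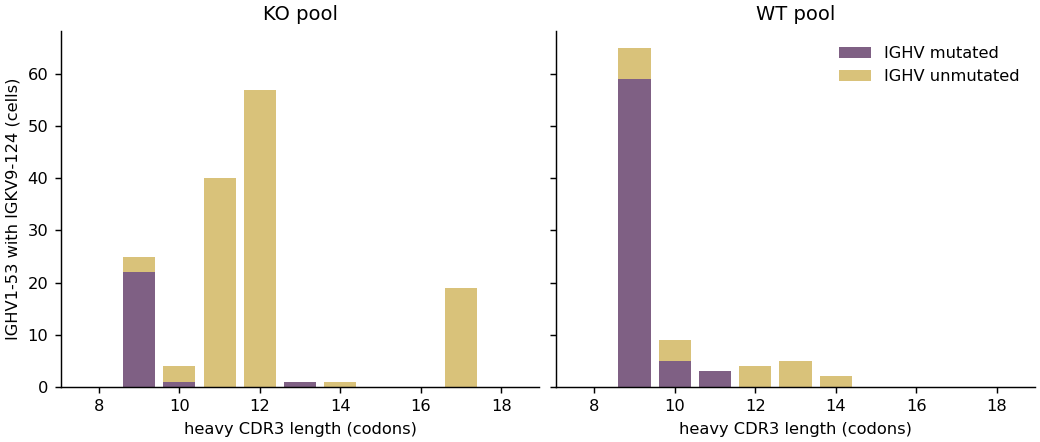
Cells that join IGHV1-53 to IGKV9-124, by length of the heavy CDR3 in codons, KO pool left and WT pool right, with mutated (purple) and unmutated (yellow) IGHV stacked. The 9-codon bar holds 25 of 147 KO cells and 65 of 88 WT cells and is mostly mutated in both.

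The most frequent heavy CDR3 sequences of the 9-codon set are shown because codon 6, marked in capitals, took more residues over the set than any other codon.
KO, IGHJ2, 5 cells: tgtgcaagaagctggGGGgactactgg
KO, IGHJ2, 5 cells: tgtgcaagatcctggGGTgactactgg
KO, IGHJ1, 5 cells: tgtgcaagatcttacTTCgatgtctgg
WT, IGHJ4, 7 cells: tgtgcaagatcctatATGgactactgg
WT, IGHJ2, 6 cells: tgtgcaagatcctacTTTgactactgg
WT, IGHJ3, 6 cells: tgtgcaaggggctacGGAgcttactgg

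The set held 26 distinct protein CDR3s, 10 in KO and 20 in WT with 4 in both. Codon 4 encoded serine in 21 of the 26, codon 5 tyrosine in 18, codon 7 aspartate in 21 and codon 8 tyrosine in 18, whereas codon 6 took 8 different residues. The IGHJ3 sequence of WT was found in 6 cells, all with an unmutated IGHV. With a junction this short, the clone rule (identity of at least 0.85) can join separate rearrangements: the largest WT clone of this kind, with 28 cells, held 17 distinct heavy CDR3 sequences, so clone numbers here are lower estimates.

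Replacements recurred at the same codons of the heavy V segment in clones of this set, in both pools. Counted from framework 1, S54R was found in 4 of 7 KO and 4 of 6 WT clones, S31R in 3 of 7 KO and 5 of 6 WT clones, and S66N in 3 of 7 KO and 3 of 6 WT clones. By cells, S54R was in 11 of 25 KO and 11 of 65 WT cells. S31R was in 4 of 25 KO and 25 of 65 WT cells, and S66N in 3 of 25 KO and 5 of 65 WT cells. With other kappa genes, S54R was found in 5 of 279 KO and 6 of 183 WT IGHV1-53 clones, and S66N in 12 of 279 KO and 10 of 183 WT clones. S31R was found there in 5 of 183 WT clones. Of those clones 87 in KO and 99 in WT carried a heavy mutation, against 7 in KO and 5 in WT of the 9-codon set, so the sets are not matched for mutation, and no test was run. They are not matched for clone size either. Clones of the 9-codon set can join separate rearrangements and held more cells each, and 1 cell with a change counts its clone.

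Some receptors of the same V genes and heavy CDR3 protein arose in both pools. IGKV9-124 had 6 of these, out of 140 distinct receptors in KO and 114 in WT, and 4 of the 6 were IGHV1-53 receptors with a 9-codon CDR3, with 10, 1, 1 and 1 KO cells and 2, 5, 2 and 3 WT cells. IGKV9-120 had 4, out of 192 in KO and 151 in WT, among them an IGHV5-9 receptor with a CDR3 of 9 codons (2 KO and 6 WT cells) and none with IGHV8-8.

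Kappa mutations were described over clones of both pools, since few cells were mutated (18 KO and 66 WT for IGKV9-120, 38 KO and 70 WT for IGKV9-124). IGKV9-120 was mutated in 54 of 291 clones, with 138 distinct changes, of which 75.4% replaced an amino acid. In IGKV9-124, 61 of 199 clones were mutated, with 173 changes and 75.1% replacements. CDR1 and CDR2 make up 20.7% of the bases and held 44.9% of the changes in IGKV9-120 and 39.3% in IGKV9-124. For IGKV9-124 the CDRs held 29.3% in KO and 44.3% in WT, and for IGKV9-120 they held 44.8% in KO and 45.0% in WT.

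The codons replaced in most clones were 32 (17 clones), 31 (12), 53 (7), 85 (5) and 77 (4) in IGKV9-120, and 31 and 34 (9 each), 53 (8), 25 and 87 (6 each) in IGKV9-124. Codons 31 and 53 thus stood in both lists. The most recurrent single changes were S32N in 7 clones (6 of them WT) and S53T in 6 clones (5 WT) of IGKV9-120, and A25T and Y87F in 6 clones each (5 WT each) and S34N in 5 clones (3 KO) of IGKV9-124. S53T and S34N each give the residue that the other gene carries in its germline. The base changes behind them, G158C in 8 IGKV9-120 cells and G101A in 6 IGKV9-124 cells, stood alone or beside 1 other such base.

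**Figure D5:**
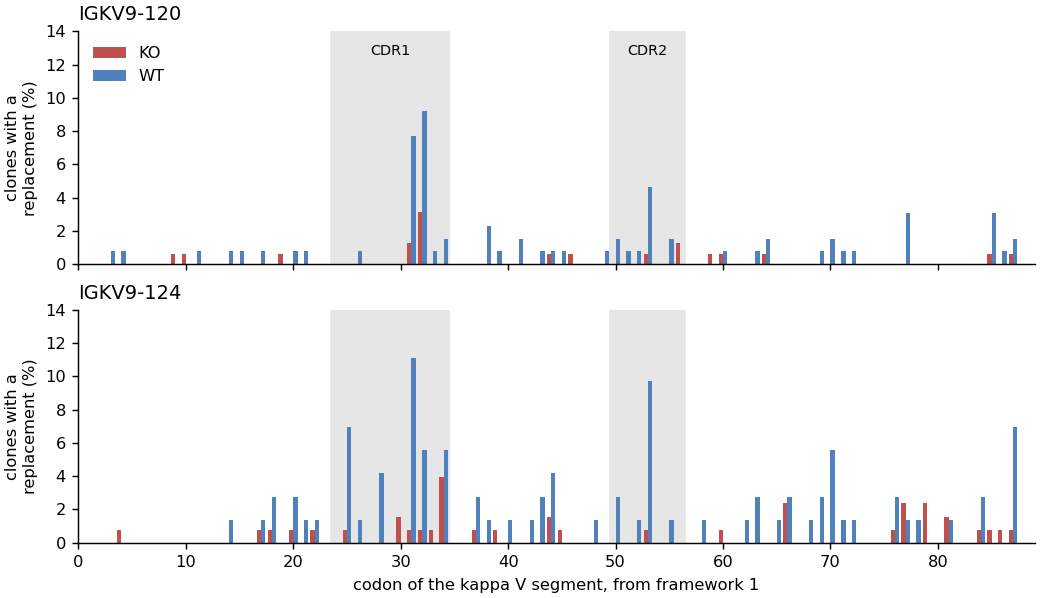
Percent of clones with an amino-acid replacement at each codon of the kappa V segment, KO left of WT at each codon, for IGKV9-120 (above) and IGKV9-124 (below); grey marks CDR1 and CDR2. Codons 31, 32 and 53 stand out in IGKV9-120 (12, 17 and 7 clones over both pools).

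IGKV9-120 cells were mostly IgM. Class-switched cells made up 3.19 ± 0.97% in KO and 4.57 ± 2.3% in WT (13 and 16 cells, exact permutation test, adjusted p = 0.661). For IGKV9-124 they made up 3.58 ± 1.3% in KO and 9.89 ± 3.2% in WT, from 15 KO and 20 WT cells. The KO libraries lay between 2.20 and 4.95% and the WT libraries between 6.25 and 13.8%, without overlap, and the exact permutation test did not pass after adjustment (p = 0.0286, adjusted p = 0.193). Other kappa cells were also switched less in KO without overlap, at 6.79 ± 0.38% in KO and 7.75 ± 0.50% in WT. IGHG1 was the main switched class, with 11 KO and 11 WT cells for IGKV9-120 and 12 KO and 11 WT cells for IGKV9-124. Among other kappa cells it made up 78.6% of the switched cells in KO and 44.8% in WT.

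IGHG2B followed with 2 KO and 4 WT cells for IGKV9-120 and 2 KO and 1 WT cells for IGKV9-124. IGHG3 had 1 KO and 8 WT IGKV9-124 cells and 0 IGKV9-120 cells, and IGHG2C had 1 WT IGKV9-120 cell. IGHA and IGHE had 0 cells for both. A count of 0 allows a share of up to 0.733% of KO and 0.865% of WT IGKV9-120 cells, and of up to 0.725% of KO and 1.52% of WT IGKV9-124 cells. Compared with other kappa cells of the same library, IGKV9-120 cells were switched less, at 3.88 ± 1.8% against 7.27 ± 0.66% (SD, n = 8, lower in 8 of 8 libraries, exact sign-flip test, adjusted p = 0.0301). That call was lost without any 1 library but KO library 3 and WT library 1 (adjusted p = 0.0603). IGKV9-124 cells did not pass that test (6.74 ± 4.0%, adjusted p = 0.738).

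The KO pool held 288 IGKV9 clones and the WT pool 202, of which 60.4% in KO and 69.3% in WT were single cells (other kappa clones, 71.2% in KO and 71.3% in WT). In KO 15.4% of IGKV9 cells lay in the 4 largest clones, and in WT 21.7%. All 4 in KO were unmutated IgM clones with 1 heavy CDR3 each. They joined IGHV1-53 to IGKV9-124 with IGKJ5 (39 cells, and a second clone of 35), IGHV1-76 to IGKV9-120 with IGKJ4 (28 cells) and IGHV1-9 to IGKV9-124 with IGKJ5 (25 cells). The clone of 39 was spread over the libraries as 13, 7, 13 and 6 cells.

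In WT the largest clone joined IGHV14-1 to IGKV9-120 (48 cells, unmutated IgM, 13, 8, 14 and 13 by library), and the third joined IGHV1-72 to IGKV9-120 (26 cells, unmutated). The other 2 were mutated clones: IGHV1-53 with IGKV9-124 and IGKJ1 (28 cells, 0 unmutated, 7 switched) and IGHV5-9 with IGKV9-120 and IGKJ2 (16 cells, 2 unmutated, 4 switched, a 9-codon CDR3 with 6 distinct sequences). The heavy CDR3 of the largest clone in each pool is shown because these carry no mutation in the V segment.
KO, IGHV1-53 with IGKV9-124: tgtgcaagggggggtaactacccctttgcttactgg
WT, IGHV14-1 with IGKV9-120: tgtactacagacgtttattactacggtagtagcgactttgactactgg

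The share of cells in clones of 2 or more, taken at 4585 cells per library, was 63.0 ± 5.3% in KO and 58.3 ± 9.9% in WT for IGKV9-124, and 49.9 ± 2.5% in KO and 56.9 ± 12% in WT for IGKV9-120 (exact permutation test, adjusted p = 0.643 each). In other kappa cells it was 44.2 ± 1.1% in KO and 55.0 ± 2.9% in WT. Relative to other kappa cells of the same library, IGKV9-124 cells were more often in such clones by 18.9 ± 4.9 points in KO and 3.27 ± 11 points in WT. The difference of 15.6 points passed the exact permutation test (p = 0.0286, adjusted p = 0.0429). It includes the lower KO share of the other kappa cells, and the IGKV9-124 shares alone did not pass. Without any 1 of the KO libraries the difference came to 13.1 to 16.5 points and did not pass (adjusted p = 0.129 to 0.171), and with clones of identical heavy CDR3 it came to 35.3 points (adjusted p = 0.0429). That rule splits clones that hold several heavy CDR3 sequences, such as the WT clone of 28 cells with 17. The larger value is therefore no independent support.

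Both genes gave strong light-chain reads. The median light-chain UMI count was 98.9 ± 13 for IGKV9-120 and 95.6 ± 14 for IGKV9-124, against 69.6 ± 6.3 for other kappa cells (SD, n = 8, higher in 8 of 8 libraries, exact sign-flip test, adjusted p = 0.0156 each). The heavy-chain count was 7.81 UMIs higher with IGKV9-120 than with IGKV9-124, in 7 of 8 libraries (exact sign-flip test, adjusted p = 0.0312, and 0.0625 without any 1 library but WT library 4).

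Not all contigs of the genes entered the comparisons. Of 1154 IGKV9-120 contigs 65.5% lay in paired cells and 19.7% in barcodes with 1 heavy and at least 2 light chains. Of 790 IGKV9-124 contigs the shares were 77.5% and 6.33%. For other kappa genes 11.6% of KO and 11.1% of WT contigs lay in barcodes with 1 heavy and several light chains. The pools differed for IGKV9-124, with 81.2% of KO and 70.7% of WT contigs in paired cells. Barcodes with no heavy chain held 5.69% of its KO and 17.9% of its WT contigs (3.08 to 8.20% of KO and 14.3 to 22.4% of WT libraries). Those shares were 9.67% in KO and 8.03% in WT for IGKV9-120, and 8.68% in KO and 12.7% in WT for other kappa genes.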

How the data were processed

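The deposited tables give, for every assembled receptor contig, its UMI and read counts, its V, J and constant genes and the sequence of each region, per the file headers. The authors made these counts with Cell Ranger on mm10 and used R 4.3.1, per the submitters' processing notes, and no source used here states which version of Cell Ranger. All 104649 contigs carried the marks for cell, high confidence, full length and productive.

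Cells with equal IGHV, IGHJ, IGKV and IGKJ genes and an equal length of heavy CDR3 were put in 1 clone by single linkage where the CDR3 nucleotides were identical at a share of 0.85 or more. They were defined over a pool where clones are counted, and within a library where each clone is counted once. A germline was the most common V sequence over at least 20 clones, so an allele, or a change that most clones carry, would go unseen. Possible doublets (barcodes with several heavy chains) were left out without a doublet caller. Low-depth contigs can carry sequencing errors that count as mutations.

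Cells per gene, V-J combination and heavy-light pair were tested with edgeR 4.0.16 in R 4.3.3 (quasi-likelihood, library size set to kappa cells), with DESeq2 1.42.0 as an alternative. Library values were tested by exact two-sided permutation over 70 assignments (smallest p 0.0286), and within-library differences by exact sign flips over 256 (smallest p 0.0078). These were adjusted by Benjamini-Hochberg within families that also held tests of both genes together, and called at an adjusted p under 0.05. The edgeR and exact tests were tested on simulated data. The share of replacement mutations was planned as a library value and is described by pool instead, since few cells were mutated. Further tools were matplotlib 3.10.9, Biopython 1.88, SciPy 1.17.1, NumPy 2.4.6, pandas 2.3.3 and Python 3.11.15.

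The genes, lists, tests and alternatives were chosen with earlier results of these data known. The genes named are both members, the 8 most frequent heavy partners of each, called pairs, all kappa J and heavy constant genes, the 4 largest clones of each pool, the 4 light CDR3 sequences in most clones, the 5 codons replaced in most clones, and the 3 IGKV genes most like each member (Pearson correlation of log2 shares with 0.05 points added). IGHV1-76, the called partners, the IGHJ segments and the recurrent changes were named after their values were seen. Alternatives tried were TMM factors, no filter, DESeq2, each clone once, germlines from at least 50 clones, a minimum of 5 UMIs, all barcodes with a heavy chain, other clone rules, a replicate block and leaving out each library.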

Additional observations from a re-analysis of the deposited data

Results flagged for a closer look

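Of 128 groups of 4 libraries, 8 had 1 library far from the other 3. Groups with equal values in all 4 libraries and the light CDR3 lengths are in that count but were not checked. Chance gives about 1 in 20 for independent values, and several of these measures depend on each other or rest on few cells. KO library 1 had an IGKV mutation frequency of 0.0494% in IGKV9-120 cells, against 0.0194 to 0.0221% in the other KO libraries. KO library 3 had an IGHV mutation frequency of 0.0533% in IGKV9-120 cells, against 0.138 to 0.146% in the others. WT library 1 had 6.86% of its IGKV9-120 cells with IGHV1-55, against 13.4 to 14.1% in the others. The remaining 5 were class shares that rest on few cells: IGHG2C in IGKV9-120 cells of WT library 1 (0.980%, 0 in the others), IGHG2B in IGKV9-124 cells of KO library 3 (1.75%) and WT library 4 (2.22%, 0 in the others in both cases), IGHG3 in IGKV9-124 cells of KO library 1 (0.990%, 0 in the other KO libraries), and the IGHG1 share of switched IGKV9-124 cells in WT library 4 (25%, against 60.0 to 66.7% in the other WT libraries).

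The excess of IGKV9-124 cells in clones of 2 or more, relative to other kappa cells, differed between KO and WT by 15.6 percentage points (exact permutation test, adjusted p = 0.0429). Other kappa cells themselves had 44.2% in KO and 55.0% in WT. The call was lost without any 1 KO library.

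Barcodes with 1 heavy and several light chains, which entered only the alternative with all barcodes that had a heavy chain, held IGKV9-120 in 2 large clonotypes. IGKV9-120 and IGKV1-117 were found together in 76 barcodes, of which 74 carried the same IGHV1-42 heavy clonotype of the WT pool (23, 20, 14 and 17 by library). IGKV9-120 and IGKV6-17 were found together in 30 barcodes, of which 27 carried the same IGHV2-5 clonotype of the KO pool (7, 11, 8 and 1 by library). The median UMI count over all such companion pairs was 96.0 for the IGKV9-120 chain and 88.0 for its companion.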

How the results depend on the processing

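Over 73 results and 991 alternative values, 774 kept their direction and side of the threshold or stayed within a set limit. That limit was a ratio to the main value for counts, and the spread for the family share. Of the rest, 144 no longer passed, 12 newly passed and 42 moved. Another 19 changed sign, in 12 results of which 2 were called. Leaving out 1 library gave 107 of the lost calls. With 1 library fewer the exact tests have fewer assignments. The cause was not tested in any case.

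The IGKV9-120 change came to −0.27 with TMM factors and ranged from −0.080 to 0.037 without 1 library. The IGKV genes called fell to 30 with DESeq2 median-ratio factors and 31 with each clone counted once. The IGKV9 V-J combinations called numbered 1 with either DESeq2 scaling, each clone once or the replicate block, and 1 to 2 without 1 library. The pairs called numbered 12 with no filter, 1 with each clone once, and 1 to 4 without 1 library. The family share differed by 0.275 points with each clone once. The switched share of IGKV9-120 turned to 0.268 points higher in KO with each clone once.

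In cells with 20 to 40 heavy-chain UMIs, chosen after seeing the data, the KO minus WT differences were no longer called: −0.0861 (IGKV) and −0.217 (IGHV) percent mutated bases and 17.3 points unmutated IGHV for IGKV9-120, and −0.184, −0.715 and 58.9 for IGKV9-124. Without 1 library the IGKV9-120 values ranged from −0.126 to −0.0975 (IGKV) and from −0.273 to −0.199 (IGHV). Calls in those cells fell to 0 of the library values, 8 against other kappa cells, 0 for the difference between pools and 3 between the genes. Without 1 library they ranged from 5 to 13, 5 to 17, 0 to 1 and 5 to 9. The difference between pools had 3 calls with each clone once, 4 with all barcodes with a heavy chain and 0 with at least 5 UMIs per chain.

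Values that changed sign, none of them called under the alternative, were the log2 changes of IGKV9-120 with IGKJ1 (−0.25, all barcodes with a heavy chain) and IGKJ2 (−0.14, each clone once), and of IGKV9-124 with IGKJ1 (0.083, all barcodes; 0.024, at least 5 light-chain UMIs; −0.23 to 0.17 without 1 library). Shares within IGKV9-120 turned to −4.56 points for IGKJ1 (all barcodes) and −1.68 for IGKJ2 (each clone once), and IGKJ2 in IGKV9-124 ranged from −7.57 to 0.322 without 1 library. Heavy CDR3 length turned to −0.46 codons for IGKV9-120 (20 to 40 UMIs) and, for IGKV9-124, to −0.50 (each clone once) and −1.05 (without IGHV1-53 cells), and without IGHV1-53 cells to 0.68 against other kappa cells and −0.55 between the genes.

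Samples with the same replicate number did not deviate together (correlations 0.038, −0.208, −0.103 and −0.139 over 69 genes), so the numbers were not taken as pairs. With the replicate block 48 of 69 IGKV genes were called, IGKV9-120 came to −0.03 and IGKV9-124 to 0.79, and an exact test over 4 pairs could not go below 0.125.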
